A study of Mus musculus with 6 samples.

Results

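The FXYD proteins are small single-span membrane proteins that bind the sodium pump (Na,K-ATPase) and tune its transport, and the beta subunits are the pump's glycosylated partners. Described here are 8 such genes of mouse: the FXYD genes Fxyd1, Fxyd2, Fxyd3, Fxyd5, Fxyd6 and Fxyd7, and the beta subunit genes Atp1b1 and Atp1b3. They were taken by symbol from 24346 genes listed per library, and the set was chosen by a rule written with their measured FPKM in the FP and RR libraries known. The difference of these 8 genes between FP and RR is therefore given as a description, with no test. All 8 passed the filter on low values, a mean over all libraries of 1 FPKM or more, which left 14789 genes for the fit.

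The libraries are RNA-seq of chondrocyte layers cut by laser microdissection from the spheno-occipital synchondrosis, a growth cartilage of the cranial base, which the labels call basilarcartilage. The series compares flat with round chondrocytes, and the libraries are titled FP and RR, 3 of each, numbered 11, 14 and 16 in both. No label spells out FP or RR, so the codes are kept. All 6 libraries share the genotype Gli1CreERT2; Tomato flox, in which a tamoxifen-activated Cre is driven from the Gli1 gene, and all share tamoxifen at postnatal day 3, so there is no untreated control. No source used here states how old the mice were at collection. Whether each library is its own animal is not stated either, and p-values then measure only the spread among these samples, possibly a technical one.

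The pump is built from an alpha subunit, which splits ATP and carries sodium out of and potassium into the cell, a beta subunit, which is needed for the alpha subunit to fold and reach the membrane, and often 1 FXYD protein. The FXYD member present sets the affinity of the pump for sodium and potassium and differs between tissues: FXYD2, the gamma subunit, is best known from kidney tubules, FXYD1 (phospholemman) from heart and skeletal muscle, and FXYD7 from brain. The sodium gradient made by the pump drives many other carriers, among them the sodium-calcium exchangers and sodium-coupled amino acid carriers.

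The family is named for the PFXYD motif that lies just outside the membrane-spanning stretch. The coding sequence around this motif is shown for the 6 FXYD members because it is the stretch by which they are recognised as 1 family. Each line holds 90 bases of the coding strand, 5′ to 3′, joined across introns from GENCODE M21 on mm10. The capitals mark the 15 bases of the 5 codons of the motif.
Fxyd1: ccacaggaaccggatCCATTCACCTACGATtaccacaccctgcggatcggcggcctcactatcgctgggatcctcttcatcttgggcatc
Fxyd2: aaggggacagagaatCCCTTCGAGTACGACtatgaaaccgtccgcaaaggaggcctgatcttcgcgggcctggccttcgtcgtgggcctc
Fxyd3: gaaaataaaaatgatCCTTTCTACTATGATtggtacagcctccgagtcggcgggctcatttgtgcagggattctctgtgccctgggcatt
Fxyd5: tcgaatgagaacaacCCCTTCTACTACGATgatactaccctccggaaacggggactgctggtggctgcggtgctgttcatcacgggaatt
Fxyd6: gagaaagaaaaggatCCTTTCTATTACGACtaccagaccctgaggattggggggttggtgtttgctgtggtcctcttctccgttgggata
Fxyd7: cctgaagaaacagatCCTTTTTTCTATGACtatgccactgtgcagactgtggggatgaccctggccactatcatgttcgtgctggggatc

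These stretches lie at chr7:31053413-31053920 on the minus strand for Fxyd1, chr9:45408117-45408361 on the plus strand for Fxyd2, chr7:31071305-31072184 on the minus strand for Fxyd3, chr7:31035222-31035413 on the minus strand for Fxyd5, chr9:45390645-45390838 on the plus strand for Fxyd6 and chr7:31044966-31047400 on the minus strand for Fxyd7. Fxyd1 was most like Fxyd3 and Fxyd6, with 64.4% of the 90 bases identical in either pair. Fxyd3 and Fxyd7 were the least alike pair, at 48.9%. Fxyd2 shared between 45 and 53 of its 90 bases with each of the other 5. The motif began at codon 16 of 64 in Fxyd2 and at codon 17 of 80 in Fxyd7. In Fxyd5, dysadherin, it began at codon 135 of 185, because the coding sequence before the motif is long in that gene.

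The 6 FXYD members sit in a pair of clusters. On chromosome 7, all on the minus strand of mm10, Fxyd5 (chr7:31032722-31042481), Fxyd7 (chr7:31042513-31051467), Fxyd1 (chr7:31051678-31057199) and Fxyd3 (chr7:31068172-31076704) follow each other. The gaps between them are 31, 210 and 10972 bp. On chromosome 9, Fxyd6 (chr9:45370185-45396159) and Fxyd2 (chr9:45399669-45410278) lie head to tail on the plus strand, 3509 bp apart. Atp1b3 (chr9:96332655-96364442) and Atp1b1 (chr1:164437109-164458355), both on minus strands, lie far from them.

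Chondrocyte markers were present in every library: the summed FPKM of 11 markers, such as Col2a1 and Acan, was 56897 to 99592 in FP and 45878 to 98102 in RR. The estimate was higher in FP for 11 of these 11 markers, with a median difference of 0.88 on the log2 scale. Among them the matrix protein gene Comp, rose, from 221 ± 61.6 FPKM in RR to 2589 ± 190 FPKM in FP (SD, n = 3 each; limma adjusted p = 0.00310). Of 8 osteoblast markers, 7 had a higher estimate in FP, with a median difference of 0.45. The transcription factor gene Sp7 rose, from 4.29 ± 1.24 FPKM in RR to 35.6 ± 5.77 FPKM in FP (SD, n = 3 each; limma adjusted p = 0.00418). Ibsp, which encodes a bone matrix protein, stood at 138, 191 and 90.8 FPKM in the FP libraries and 41.6, 10.7 and 7.18 FPKM in RR (limma adjusted p = 0.0571). The summed osteoblast level overlapped, at 268 to 793 FPKM in FP and 124 to 1181 FPKM in RR. The largest part of this sum in every library was Col1a1, which is also a fibroblast marker. Col1a1 was at 596, 453 and 130 FPKM in FP and 1077, 185 and 107 FPKM in RR, so the sum says little about the other osteoblast markers. The part of these shifts in the values of the 8 members was not tested. FPKM is a fragment number scaled by transcript length and by the fragments of the library. Read from the steps of low values, a single fragment on 2000 bp of transcript made 0.128 FPKM in FP 11, the deepest library, and 0.297 FPKM in RR 14, the shallowest. The total number of fragments is unknown. Counting error, the only error these steps speak to, is thus large for values of a few FPKM. In the fit across all genes (limma on log2(FPKM + 1), FP minus RR), 143 of 14789 genes passed an adjusted p of 0.05, which is 0.967%, 82 higher in FP and 61 higher in RR. Every FP value lay above every RR value in 8.74% of the tested genes, and below every RR value in 7.28%. With libraries rescaled by median ratios the split of calls was 75 higher and 80 lower, and the median difference of all genes moved from 0.02 to -0.11.

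Of the 8 members, 3 had every FP value above every RR value (Fxyd2, Fxyd3 and Atp1b3), 0 had every FP value below, and 5 overlapped. The estimate was positive for 4 and negative for 4, and the median difference was 0.45 on the log2 scale, against 0.02 over all tested genes. The 143 genes include 1 of the 8, Fxyd2. These counts use the contrast by which the members were chosen, so they test nothing about them and nothing is read from them. In bulk libraries such as these, fewer cells of a type and less RNA per cell cannot be told apart.

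**Figure D1:**
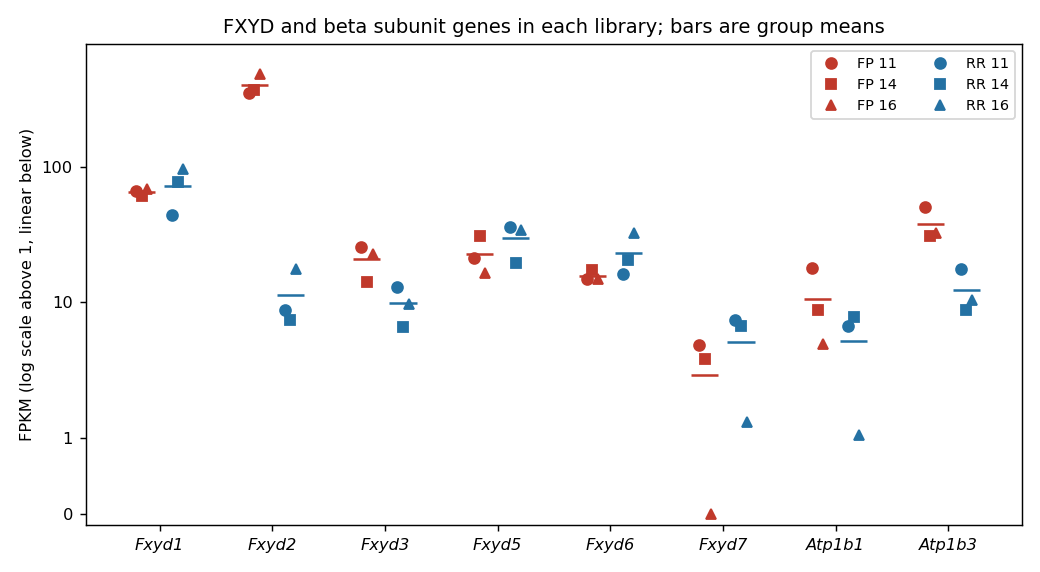
FPKM of the 8 genes (x axis) in each of the 6 libraries (y axis, log scale above 1 FPKM and linear below), with FP libraries in red, RR libraries in blue, symbols for the library number and bars at the group means. The FP and RR values stand apart for Fxyd2, Fxyd3 and Atp1b3 and overlap for the other 5.

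Among the regulators, Fxyd2 had the widest difference. It was at 347, 369 and 478 FPKM in FP libraries 11, 14 and 16, and at 8.83, 7.44 and 17.6 FPKM in RR libraries 11, 14 and 16. All 3 FP libraries were high and all 3 RR libraries low, and the lowest FP value was 19.7 times the highest RR value. FP averaged 398 ± 70.5 FPKM and RR 11.3 ± 5.52 FPKM (SD, n = 3 each), a ratio of 35.2. The difference in log2(FPKM + 1), a scale that shrinks differences at low values, was 5.09 ± 0.35 (SE). Between libraries of the same number the ratio was 39.2 for 11, 49.6 for 14 and 27.2 for 16.

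In depth, the FP values of Fxyd2 correspond to about 668, 377 and 637 fragments, and the RR values to about 11.8, 6.35 and 25.2. The low group is therefore measured with a few fragments per library, so its counting error is wide. By rank among all 24346 listed genes, Fxyd2 stood at the 99.4th to 99.5th percentile in FP and the 81.0th to 90.8th in RR. Many of the listed genes did not pass the filter on low values. It was thus among the most abundant transcripts per length in FP and still above most listed genes in RR. Its chromosomal neighbour Fxyd6, the upstream gene on the same strand, did not share its direction.

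Fxyd6, phosphohippolin, was at 14.8, 17.3 and 14.96 FPKM in FP libraries 11, 14 and 16, and at 16.3, 20.5 and 32.3 FPKM in the RR libraries of the same numbers. The groups overlapped, although within each number the FP library was the lower one, and RR 16 stood above the other 5. The difference was -0.47 ± 0.30 on the log2 scale (SE), with means of 15.7 ± 1.39 and 23.0 ± 8.27 FPKM (SD, n = 3 each). A pair of genes 3509 bp apart thus had estimates of opposite sign.

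Fxyd3, known as Mat-8 and described in epithelia and tumours, was at 25.7, 14.2 and 22.9 FPKM in the FP group and at 13.1, 6.62 and 9.76 FPKM in RR, in the order 11, 14, 16. The groups did not overlap, but the margin was narrow: the lowest FP value, FP 14, was 1.09 times the highest RR value, RR 11. The means were 20.9 ± 6.01 and 9.81 ± 3.22 FPKM (SD, n = 3 each), a ratio of 2.13, and the log2 difference was 1.02 ± 0.33 (SE). Within each number the ratio was closer, at 1.97, 2.15 and 2.34. Library 14 was the lowest of its group in both groups. The summed FPKM of 8 epithelial markers was 2.54, 19.1 and 31.5 in FP and 4.84, 36.5 and 2.89 in RR, and its part in the Fxyd3 values was not tested. Exons of Fxyd3 overlap 2059 bp of Lgi4 on the other strand. Lgi4 was listed at 0.325 to 1.85 FPKM, and no source used here says whether counting used strand.

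Fxyd1, the phospholemman gene, was the most abundant FXYD member in RR and the next after Fxyd2 in FP. It was at 66.4, 60.5 and 67.9 FPKM in FP libraries 11, 14 and 16, and at 44.3, 76.9 and 95.2 FPKM in the RR libraries. The FP libraries were close together and lay inside the RR range, so the groups overlapped. The difference was -0.08 ± 0.32 on the log2 scale (SE), and its sign turned with the library left out, reaching 0.15 without RR 16. Muscle, a tissue known for Fxyd1, was followed by 12 markers, whose summed FPKM was 657, 272 and 814 in the RR libraries and 438 to 546 in FP. Most of that sum was the troponin gene Tnni2, at 448, 236 and 769 FPKM in RR and 277, 314 and 330 FPKM in FP. Acta1, the skeletal muscle actin, was at 41.7, 5.84 and 2.71 FPKM in RR and 38.8, 27.6 and 66.3 FPKM in FP, and the estimate was higher in FP for 10 of the 11 muscle markers tested. Tnni2 was thus highest in RR 16, as Fxyd1 was, and Acta1 was lowest there. The part of muscle RNA in the Fxyd1 values was not tested.

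Fxyd5 and Fxyd7, the next genes along the chromosome 7 cluster, also overlapped between groups. Fxyd5, a modulator of cell adhesion, was at 21.2, 30.9 and 16.5 FPKM in FP and 36.2, 19.4 and 34.2 FPKM in RR. Library 14 was the highest of the FP group and the lowest of the RR group. The difference was -0.37 ± 0.34 on the log2 scale (SE).

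Fxyd7 had low values: 4.84, 3.85 and 0 FPKM in FP, and 7.36, 6.72 and 1.32 FPKM in RR. These correspond to about 9.43, 3.97 and 0 fragments in FP and 9.90, 5.80 and 1.91 fragments in RR. The groups overlapped, and the FP library was the lower one within each number. Library 16 was lowest in both groups, and a listed 0 can be a failed estimate. The difference was -0.80 ± 0.73 on the log2 scale (SE). It was 0.00 without FP 16 and -0.59 without both libraries numbered 16.

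The make-up of the FXYD family differed between the libraries. Fxyd2 held 72.3%, 74.4% and 79.6% of the summed FXYD FPKM in FP libraries 11, 14 and 16, and 7.01%, 5.41% and 9.25% in the RR libraries. Fxyd1 held 12.5 ± 1.28% in the FP libraries and 47.0 ± 10.7% in the RR libraries (SD, n = 3 each), Fxyd5 held 4.47 ± 1.74% and 20.3 ± 7.55%, and Fxyd6 held 3.02 ± 0.5003% and 14.9 ± 2.0%. In FP the family was thus mostly Fxyd2, and in RR it was spread over Fxyd1, Fxyd5 and Fxyd6. The summed level was 525 ± 65.7 FPKM for FP and 151 ± 34.3 FPKM for RR (SD, n = 3 each). Without Fxyd2 it came to 127 ± 5.38 and 140 ± 29.1 FPKM, and these ranges overlapped.

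Levels of genes of different length are compared here per length, and that scale was not quite even. Per kilobase, 1 fragment was worth 1.25 to 1.32 times more FPKM on transcripts of 400 to 800 bp than on those of 1500 to 3000 bp. The annotated Fxyd2 transcripts are 632 and 668 bp long, those of Fxyd6 are 1788 and 1789 bp, and those of Fxyd3 range from 439 to 2894 bp. Shares within the family carry this unevenness, which is the same for FP and RR to within the range given.

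**Figure D2:**
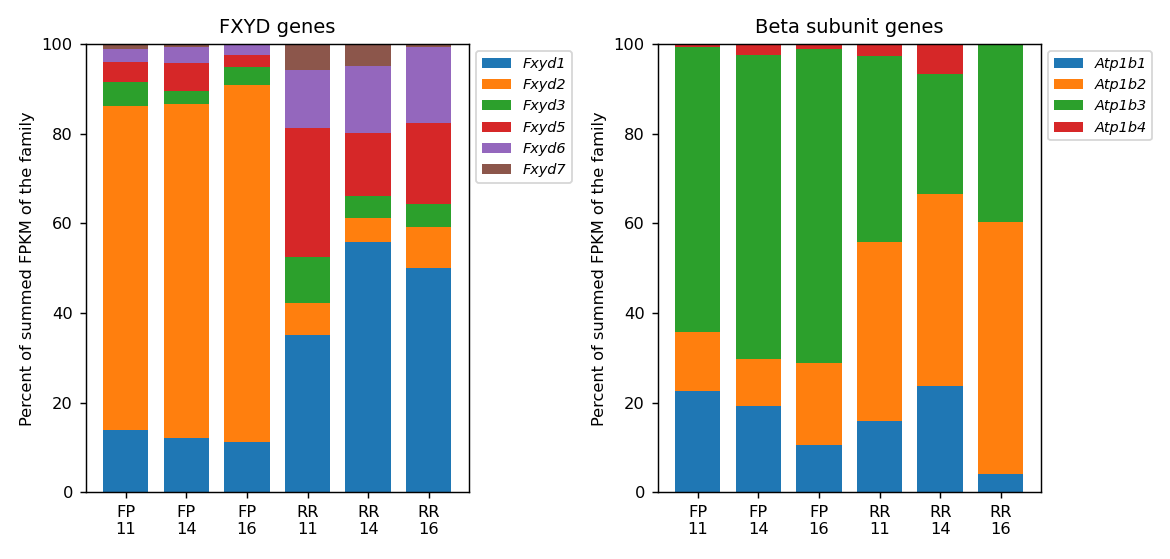
Percent of the summed FPKM of the FXYD genes (left) and of the beta subunit genes (right) held by each gene, 1 stacked bar per library. Fxyd2 fills 72.3% to 79.6% of the FXYD bar in FP and 5.41% to 9.25% in RR, and Atp1b3 fills 63.4% to 70.2% of the beta bar in FP and 26.8% to 41.6% in RR.

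Atp1b3 encodes the beta 3 subunit, a widely expressed form. It was at 50.5, 30.9 and 32.7 FPKM in FP libraries 11, 14 and 16, and at 17.6, 8.84 and 10.4 FPKM in the RR libraries. All FP values were above all RR values, the lowest by 1.75 times the highest RR value, and library 11 was the highest of both groups. The means were 38.1 ± 10.8 and 12.3 ± 4.69 FPKM (SD, n = 3 each), a ratio of 3.09, and the log2 difference was 1.57 ± 0.33 (SE). Within each number the ratio was 2.86, 3.50 and 3.13.

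Atp1b1 encodes the beta 1 subunit, the most widespread form, which also acts in adhesion between cells. It was at 17.96, 8.82 and 4.91 FPKM in the FP group and at 6.75, 7.82 and 1.05 FPKM in RR. The groups overlapped, because the spread within a group was wide: 3.66-fold in FP and 7.42-fold in RR. Within each number the FP library was the higher one, by 2.66, 1.13 and 4.66 times, and the log2 difference was 0.99 ± 0.61 (SE). Without RR 16 it was 0.32. Its exons overlap 575 bp of Nme7 on the other strand, which was listed at 1.80 to 4.93 FPKM.

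Atp1b2, the beta 2 subunit known from glia, went the other way and was not among the chosen genes. It was at 10.6, 4.82 and 8.51 FPKM in the FP group and at 16.9, 14.1 and 14.7 FPKM in RR. Every FP value was below every RR value, but the gene did not pass the test (log2 difference -0.91 ± 0.31, limma adjusted p = 0.326). The summed FPKM of 10 glial markers was 54.1 to 66.9 in FP and 67.0 to 96.2 in RR, and its part in the Atp1b2 values was not tested. In share of the beta FPKM, Atp1b3 held 67.1 ± 3.43% in FP and 36.1 ± 8.08% in RR, Atp1b2 held 14.04 ± 3.90% and 46.3 ± 8.70%, and Atp1b1 held 17.5 ± 6.21% and 14.5 ± 9.90% (SD, n = 3 each).

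Some of the spread within groups followed the library number. The summed FPKM of 9 neuronal markers, among them Snap25 and Tubb3, was 71.3, 17.9 and 12.4 in FP and 43.4, 27.7 and 11.7 in RR. The sum was highest in number 11 and lowest in number 16 in both groups. Single markers did not all keep this order. Syt1 and Gap43 did, but in RR Snap25 was highest in number 14 and Tubb3 lowest there. Rbfox3 was highest in number 16 in both groups, at 1.04 FPKM in FP and 3.69 FPKM in RR. Atp1b1 and Fxyd7 were lowest in number 16 in both groups, although in RR Atp1b1 was highest in number 14. Fxyd1 and Fxyd2 went the other way and were highest in number 16 in both groups. The part of neuronal RNA in these values was not tested.

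**Figure D3:**
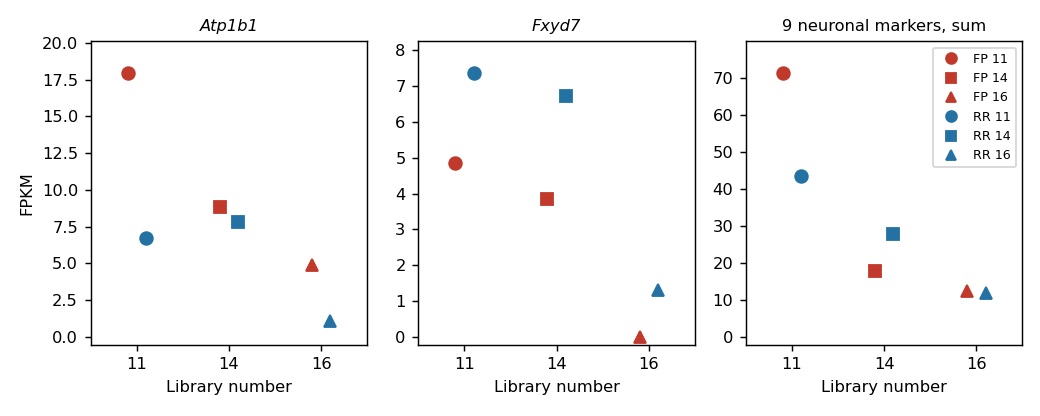
FPKM of Atp1b1 and Fxyd7 and the summed FPKM of 9 neuronal markers (y axes) by library number (x axis), FP in red and RR in blue. The marker sum is 71.3 and 43.4 in the libraries numbered 11 and 12.4 and 11.7 in those numbered 16, and Atp1b1 and Fxyd7 are lowest in the libraries numbered 16 of either group.

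Of the 10 other FXYD and pump genes, 4 passed the filter and 0 of these passed the limma test, with a median difference of -0.09. At an unadjusted p under 0.05 there was 1, Atp1b2. The share of all tested genes under that cut was not computed, so nothing is read from such counts, here or in the lists below. Fxyd4, a regulator of the kidney collecting duct and the FXYD gene that is no member, was listed at 0 in all 6 libraries. Low as well were the alpha 4 subunit gene Atp1a4, Atp1b4 and the proton pump subunits Atp4a, Atp4b and Atp12a, and none of these 5 exceeded 2.80 FPKM in any library.

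Sodium transporters that run on or with the gradient were tested as a list of 23 genes, of which 18 passed the filter. Of these, 1 rose and 0 fell (5 at an unadjusted p under 0.05), and the median difference was 0.03. Slc8a3 (NCX3), a sodium-calcium exchanger, was at 66.2, 33.7 and 45.2 FPKM in the FP group and at 10.4, 5.40 and 8.23 FPKM in RR. All its FP values were above its RR values, and it rose by 2.44 ± 0.34 on the log2 scale (SE; limma adjusted p = 0.016). That call was lost without FP 16, without RR 14 or without RR 16, with estimates that kept their sign, and its adjusted p ranged from 0.00442 to 0.298 over all alternatives. Slc38a2, a sodium-coupled amino acid carrier, had a ratio of means of 2.91 (limma adjusted p = 0.055), and Trpv4, a cation channel active in chondrocytes, one of 2.87 (limma adjusted p = 0.113). Neither passed, although their FP and RR values did not overlap; under the 18 alternatives Slc38a2 passed in 5 and Trpv4 in 1.

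Calcium pumps, which are related to the sodium pump, and their small membrane regulators were tested as a further list. Of 12 such genes found, 11 passed the filter and 0 passed the limma test (1 at an unadjusted p under 0.05, Atp2b1), with a median difference of 0.39. Atp2b1, a plasma membrane calcium pump, was at 35.8, 20.8 and 19.4 FPKM in FP and 19.3, 9.32 and 13.2 FPKM in RR (limma adjusted p = 0.469), and Atp2a1, the calcium pump of fast muscle, had an adjusted p of 0.564 in the same limma fit. Another list held 18 kinases, anchors and other genes that control the pump or its partners, of which 15 passed the filter. Of these, 0 passed the limma test (4 at an unadjusted p under 0.05), with a median difference of -0.17. As above, nothing is read from the counts at an unadjusted p. Sgk1, a kinase that raises sodium transport, was at 6.59, 3.82 and 2.38 FPKM in FP and 15.1, 10.7 and 14.6 FPKM in RR (log2 difference -1.52 ± 0.34, limma adjusted p = 0.110). Wnk4, a kinase of salt transport, was at 35.1, 88.4 and 54.5 FPKM in FP and 12.2, 17.98 and 28.6 FPKM in RR (1.53 ± 0.41, limma adjusted p = 0.193). Their groups did not overlap, in opposite directions, and neither passed.

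**Figure D4:**
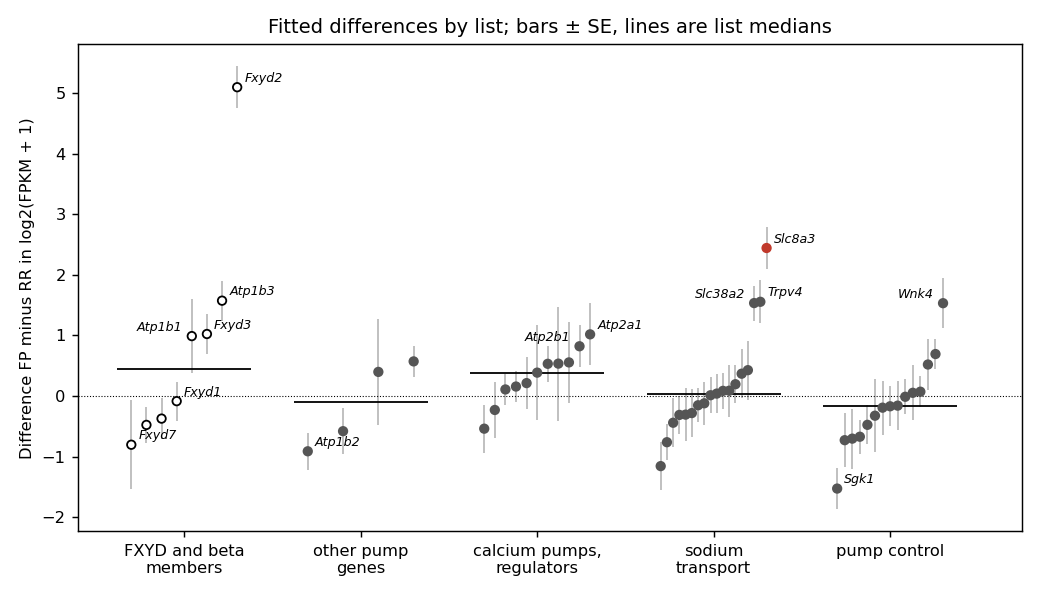
Fitted difference FP minus RR in log2(FPKM + 1) for each tested gene (points, bars ± SE) in 5 lists, with a line at each list's median. Open points are the 8 members, given without a test, the red point is Slc8a3, at 2.44, and the gray points did not pass the test. Fxyd2, at 5.09, stands above all other genes drawn.

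By mean level, the members ranked in FP as Fxyd2, Fxyd1, Atp1b3, Fxyd5, Fxyd3, Fxyd6, Atp1b1 and Fxyd7. The ranges of Fxyd2, Fxyd1 and Atp1b3 did not reach that of the next gene, for Atp1b3 only just, at 30.92 FPKM in FP 14 against 30.85 FPKM for Fxyd5 there. From Fxyd5 through Fxyd6 each range overlapped that of the next gene. The range of Atp1b1 also stayed just above that of Fxyd7, at 4.91 FPKM in FP 16 against 4.84 FPKM for Fxyd7 in FP 11. In RR the order was Fxyd1, Fxyd5, Fxyd6, Atp1b3, Fxyd2, Fxyd3, Atp1b1 and Fxyd7. There only Fxyd1 stood apart from the gene after it, and every later range overlapped the next.

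Across the 6 libraries, the 3 genes whose groups stood apart followed each other. Pearson's r of log2(FPKM + 1) was 0.95 between Fxyd3 and Atp1b3, 0.89 between Fxyd2 and Atp1b3 and 0.83 between Fxyd2 and Fxyd3. These values describe 6 points that share their libraries and fall in 2 groups, so most of r comes from the gap between the groups. The lowest value was -0.82, between Fxyd6 and Atp1b1.

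Profiles were compared with those of 6551 other genes whose mean reached 5 FPKM, leaving out genes with Gm, Rik or small RNA names. The profiles most like that of Fxyd2 over the 6 libraries were those of Rhbdl2, a rhomboid protease (r = 0.999), and Wnt4, a secreted signal (r = 0.998). Wnt4 was at 11.3, 11.1 and 12.03 FPKM in the FP group and at 2.13, 1.62 and 2.87 FPKM in RR, so RR 16 was its highest RR library, as for Fxyd2. A total of 135 genes had an r over 0.95 with Fxyd2, so these are the top of a long list. For Fxyd3 they were Eif5a, a translation factor, and Hist2h4, a histone gene (r = 0.997 and 0.995), and for Atp1b3 they were Raph1, a regulator of actin, and Aldh1l2, a mitochondrial folate enzyme (r = 0.997 and 0.994). Eif5a was at 144, 72.3 and 116 FPKM in FP and 64.5, 35.9 and 49.8 FPKM in RR, with library 14 lowest in both groups, as for Fxyd3. For the members whose groups overlapped, the nearest were Fbxo10 and Dhx30 for Fxyd1, Mtus1 and H2-D1 for Fxyd5, Tnip1 and Lpp for Fxyd6, and Rnf103 and Gxylt2 for Atp1b1, with r between 0.975 and 0.994. Fxyd7 was below the level set for this search.

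Promoter windows were searched for every member that had one. Those of Fxyd3 and Atp1b3 are shown because this pair had the highest r among the members. Most of that r comes from the gap between the groups, so it is no sign of shared control. RefSeq windows on GRCm38.p6, from 250 bases before to 50 after a start site, were matched for 6 of the 8 members, with 7 windows in all. Fxyd2 and Fxyd7 had none. The first line is the upstream of the Atp1b3 windows (chr9:96364382-96364681, minus strand), and the second is that of Fxyd3 (chr7:31076648-31076947, minus strand), both 5′ to 3′ along the gene. Capitals mark motif matches, and the Fxyd3 window has none.
Atp1b3: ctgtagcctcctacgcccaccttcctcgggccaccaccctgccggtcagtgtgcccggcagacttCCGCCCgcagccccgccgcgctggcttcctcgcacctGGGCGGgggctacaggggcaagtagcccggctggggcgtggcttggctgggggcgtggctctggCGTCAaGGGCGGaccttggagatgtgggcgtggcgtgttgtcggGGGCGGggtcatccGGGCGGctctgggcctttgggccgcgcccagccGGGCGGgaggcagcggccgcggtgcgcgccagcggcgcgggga
Fxyd3: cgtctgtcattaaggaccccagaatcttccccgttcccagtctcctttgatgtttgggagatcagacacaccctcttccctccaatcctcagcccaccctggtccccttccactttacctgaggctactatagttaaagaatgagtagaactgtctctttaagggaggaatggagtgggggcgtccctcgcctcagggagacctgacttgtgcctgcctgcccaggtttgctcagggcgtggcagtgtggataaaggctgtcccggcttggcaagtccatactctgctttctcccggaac

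Both strands were searched for 8 motifs. The RUNX site was searched as TGTGGT, and the FOXA site as TGTTTAC. The core bound by SOX9 was searched as ACAATG and a general SOX core as ACAAAG. The GC box was searched as GGGCGG, the TATA box as TATAAA, the MEF2 site as TTTATAG and the cAMP element, in its short form, as TGACG. The upstream Atp1b3 window held the GC box at 6 places, 5 on its own strand and 1 on the other, and the short cAMP element at 1 place. The GC box was in 35.7% of all 32851 windows and the short cAMP element in 20.8%. The downstream Atp1b3 window held the general SOX core and the short cAMP element. That of Atp1b1 held the general SOX core and the GC box, and that of Fxyd1 the general SOX core and the letters of the TATA box. In Fxyd1 those TATA letters were on the other strand and began at base 252 of the window, past the start site. They do not mark a TATA box upstream of the start. The general SOX core was in 18.7% of all windows and the TATA box in 13.6%. Windows of Fxyd3, Fxyd5 and Fxyd6 held none of the 8, which says only that these letters are not in those windows. The upstream Atp1b3 window was 76.0% GC with 34 CG pairs, the downstream one 74.7% with 39, and that of Atp1b1 71.0% with 31. The FXYD windows were 54.3% to 58.7% GC with 6 to 12 CG pairs, against a median of 52.7% and 7 over all windows. The windows of Atp1b1 and Atp1b3 were thus GC-rich, and those of the FXYD members that had one were near the median. Atp1b1 and Atp1b3 both had a higher estimate in FP, and Fxyd2 and Fxyd7 had no window. These windows therefore cannot show how GC content goes with the direction of a difference.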

How the data were processed

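RNA was measured in 6 libraries, made with a SMARTer stranded total RNA kit for picogram inputs from RNA in QIAzol, per the labels. The authors deposited FPKM values, as the file headers state. The submitters' processing notes name Cuffdiff 2.2.1, SAMtools 0.1.18, TopHat2 2.1.1 and Bowtie2 2.2.8, with mm10. No source used here gives their order, the annotation or any scaling between libraries. FPKM keeps no counts, so log2(FPKM + 1) was fitted with limma 3.58.1 in R 4.3.3 (eBayes with trend, two-sided, Benjamini-Hochberg over 14789 genes, threshold 0.05), with FP and RR as groups. The fit was also run on simulated normal values with known changes. Those values had no fragment steps and no shared effect of library number, so they do not speak to either.

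Low values fell on steps of whole fragments: 70.4% to 73.4% of values under 4.5 fragments, on transcripts of 1500 to 3000 bp, were whole within 0.1 fragments, against 20% by chance, and 43.2% to 49.5% on transcripts of 400 to 800 bp. Fragment numbers are therefore approximate. Coordinates and coding sequences are GENCODE M21. Named are all members and other pump genes, of each further list the genes past the threshold and the 2 next by p, and the 2 genes most like each member of at least 5 FPKM. The members and lists were chosen with earlier results of these data known. Some genes of these lists are not reported here, but stay in the tests and counts.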

Additional observations from a re-analysis of the deposited data

How the results depend on the processing

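The count of genes past the threshold, 143, was 83 without an intensity trend and between 42 and 85 when 1 library was left out. Leaving out both libraries of a number gave 42 (11), 8 (14) and 20 (16). Each such fit applied the filter to its own libraries. The estimate of Fxyd2 was positive under all 18 alternatives, between 4.67 and 5.44, and so were those of Fxyd3 (0.79 to 1.27), Atp1b3 (1.32 to 1.85) and Atp1b1 (0.32 to 1.41). Those of Fxyd5 and Fxyd6 were negative under all 18. Fxyd1 kept its sign in 15 of 18 (-0.41 to 0.15) and Fxyd7 in 16 of 17 (-1.74 to 0.00). The other pump and transport genes past the threshold, 1 in all, were 2 with a pseudocount of 0.1, with a mean of at least 5 FPKM, with median ratio rescaling and with library weights, where Slc38a2 joined Slc8a3. They were 0 to 1 when 1 library was left out and 0 when both libraries of a number were.

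With the library number as a replicate block, 271 genes were past the threshold, among them 3 of the other pump and transport genes: Slc8a3, Slc38a2 (limma adjusted p = 0.0215) and Trpv4 (0.0303). The 271 include 2 members (Fxyd2 and Atp1b3), a count that is no test of them, since they were chosen on this contrast. Deviations from the group means correlated across genes at 0.32, 0.18 and 0.09 between FP and RR libraries numbered 11, 14 and 16, so not every pair was over 0.1, although every library correlated best with its own number. That is a hint from the data and not from the design. Depth limits the members with few fragments: Fxyd7 had at most 9.90 in any library, Atp1b1 had 7.80 in RR 16 and Fxyd2 had 6.35 to 25.2 in RR.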
